A study of Mus musculus with 11 samples.

Results

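The genes described here are 10 genes by which astrocytes are recognised in brain tissue: Gfap, Aqp4, Glul, Slc1a2, Aldoc, Apoe, Clu, S100b, Gja1 and Gjb6. Every probe set annotated with 1 of these symbols was taken, which gave 18 of the 12488 probe sets on the array, for 10 of 8251 named genes. Of the 18, 16 were bright enough to be tested and the other 2, for Apoe (161321_i_at) and Gjb6 (161607_r_at), lay near the floor of the signal. The rule picks probe sets by gene symbol and uses no signal value.

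The study measured messenger RNA of whole brain on 1 array per mouse in 5 null mice, which lack the nicotinic acetylcholine receptor's β4 subunit, and 6 wild-type littermates, all untreated and of strain C57BL/6J. Null 1 and null 2 were males of 9 weeks, and null 3, null 4 and null 5 were females of 7, 8 and 8 weeks. Wild-type 3 and wild-type 5 were females of 7 and 6 weeks, and wild-type 1, 2, 4 and 6 were males of 9, 8, 6 and 6 weeks. The animal numbers of all 5 null mice and of wild-type 1, 2 and 3 begin with B4, and those of wild-type 4, 5 and 6 begin with LT. The labels describe the mutation as null and name no promoter or cell type for it. No probe set was annotated to Chrnb4, the gene of the β4 subunit, so the genotype labels could not be checked on it.

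Astrocytes clear glutamate and potassium from around synapses, turn glutamate into glutamine for neurons, and carry water through end feet that wrap blood vessels. They are joined to each other by gap junctions, supply lipoprotein particles to neurons, and when the brain is injured they raise the intermediate filament protein GFAP. Whole brain also holds neurons, oligodendrocytes, microglia and vessels, so in these bulk samples fewer astrocytes and less RNA per astrocyte cannot be told apart. For neurons, the summed signal of 13 markers was 16677 and 16817 in the male null brains, 14002 to 15021 in female null brains, against 12535 to 14674 in wild-type brains. Such a sum rests mostly on the brightest genes and is no measure of neuronal content.

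The male null brains, null 1 and null 2, stood apart from the other 9 arrays. The first principal component, with 39.7% of the variance, placed them at 47.2 and 49.2 and the others between -16.3 and -2.03. The ratio of 3′ to 5′ control signal of Gapdh, a sign of how far labelled RNA extends toward the 5′ end, was 0.859 and 0.798 in them, 2.19 to 3.58 in female null brains, against 3.57 to 5.92 in wild-type brains. It averaged 2.04 ± 1.21 in null brains (SD, n = 5) and 4.24 ± 0.862 in wild-type brains (SD, n = 6; two-sided exact permutation p = 0.00433). The median signal of an array was 58.3, 56.3, 46.8, 46.4 and 46.3 in null 1 to null 5, and 49.75, 44.2, 43.6, 49.3, 45.3 and 45.35 in wild-type 1 to wild-type 6, at a trimmed mean of 150.1 on every array. The comparisons of the astrocyte genes below are therefore also given without the male null brains or within each sex. These comparisons do not remove the ratio. Without the male null brains it still differed, null minus wild-type, by -0.58 on the log2 scale (two-sided exact permutation p = 0.0238). Among females it was 2.19 to 3.58 in null and 3.81 to 3.91 in wild-type brains.

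None of the 10 astrocyte genes differed between null and wild-type brains at an adjusted p under 0.05. The count was 0 of 16 tested probe sets, against 2 of 7453 over the whole array (0.0268%). At an unadjusted p under 0.05 it was 5 of 16, against 1724 of 7453 (23.1%). The median log2 difference, null minus wild-type with sex in the model, was 0.157 over the 16 astrocyte probe sets and 0.0346 over all probe sets, and 10 of the 16 values were above 0. The values ran from -0.43 for Clu 161294_f_at to 1.38 for Aqp4 102703_s_at. Without the male null brains 0 of 16 passed, as did 0 of 7453 probe sets (0%), and none of the 16 had an unadjusted p under 0.05, against 263 of all probe sets. With sex in the model, that genotype difference rests on the 3 null and 2 wild-type females alone. It equals the difference within females given below and is no separate check of it.

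The count over both sexes moved with either female wild-type array. Without wild-type 5, 3 of 16 astrocyte probe sets passed (Gfap 94143_at and Aqp4 102703_s_at higher, Clu 161294_f_at lower in null brains), beside 873 of 7453 over the array. Without wild-type 3, 2 of 16 passed (Aqp4 102703_s_at and Glul 94852_at, both higher), beside 199 of 7453. Leaving out any other single mouse gave 0 of 16.

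**Figure D1:**
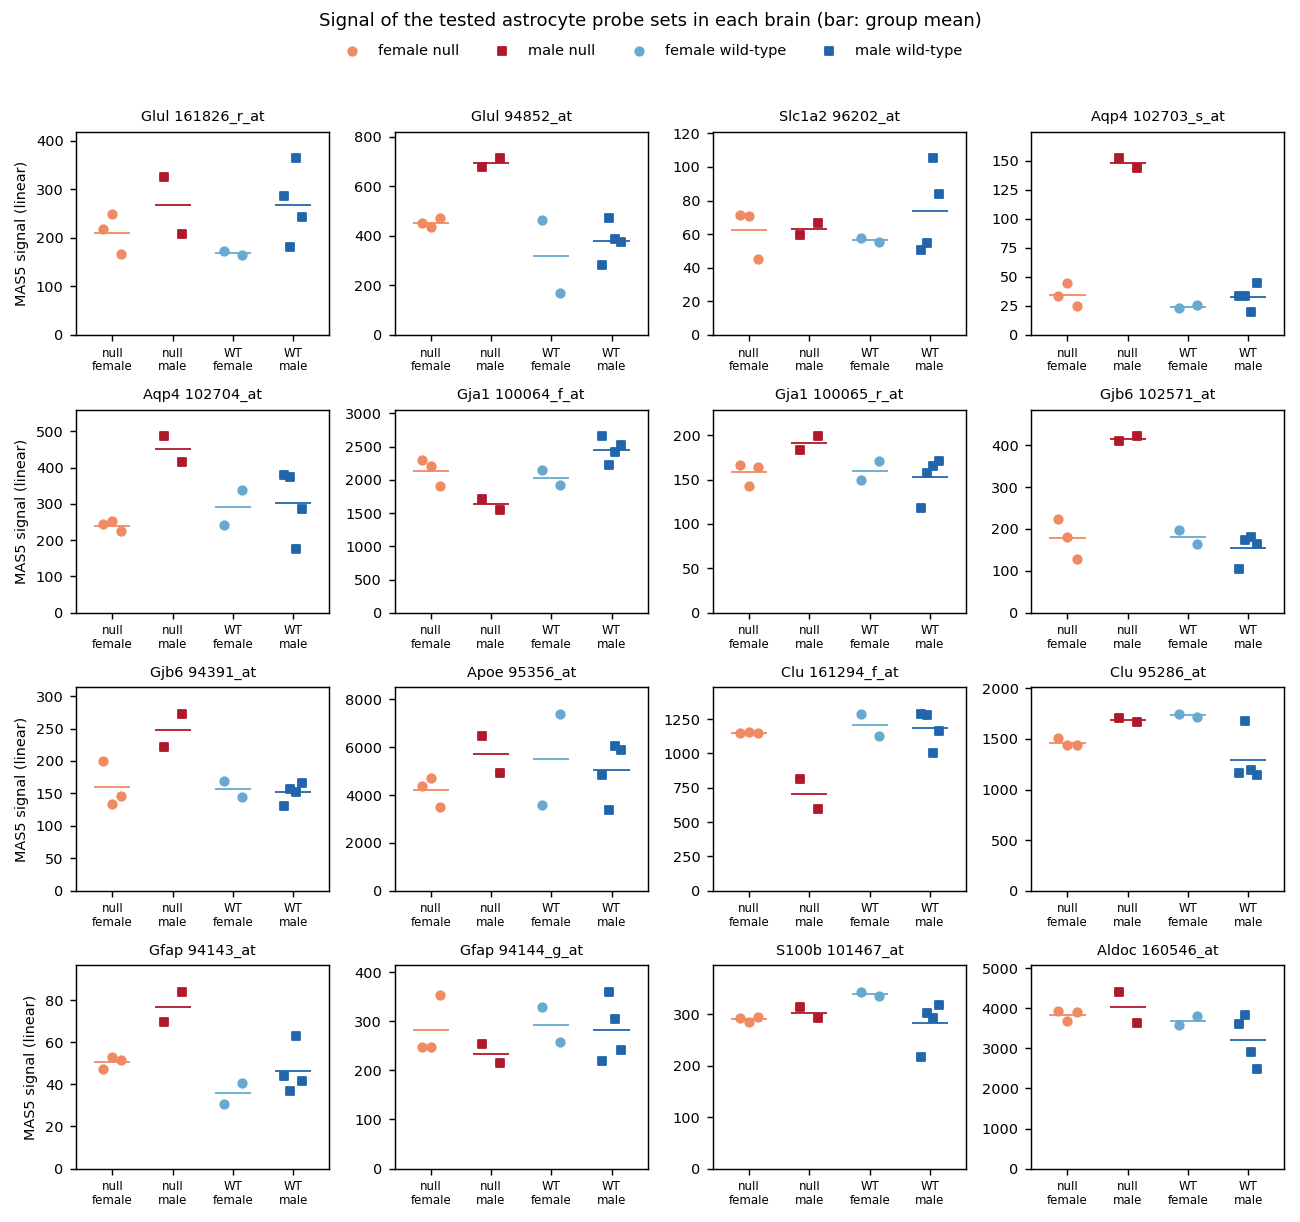
Linear MAS5 signal (vertical axes, from 0) of the 16 tested astrocyte probe sets in each of the 11 brains, by genotype and sex (horizontal axes); each point is 1 brain and each bar a group mean. The 2 male null brains lie above all 9 others for 7 of 16 probe sets (20.7% of all 7453 tested), among them Aqp4 102703_s_at at 152.1 and 143.6, and below all 9 others for 2 of 16, Clu 161294_f_at and Gja1 100064_f_at (16.5% of all).

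Within males, 2 null brains were set against 4 wild-type brains, and 7 of 16 astrocyte probe sets (43.8%) passed the threshold, against 2433 of 7453 over the array (32.6%). Of the 7, 5 were higher in null males (17.8% of all probe sets were), which were both probe sets of Gjb6 and 1 each of Aqp4, Glul and Gfap. The other 2 were lower (14.8% of all were), 1 of Clu and 1 of Gja1. Within females, 3 null against 2 wild-type brains, 0 of 16 passed and 0 of 7453 (0%) over the array, with 1 of 16 and 308 of 7453 at an unadjusted p under 0.05 by limma. The genotype difference itself differed between the sexes, as the female difference minus the male one, for 4 of 16 probe sets (25%), against 1187 of 7453 (15.9%). These were Gjb6 102571_at, Aqp4 102703_s_at, Gja1 100064_f_at and Clu 161294_f_at.

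Both counts moved with the male null brains and with the control ratio that goes with them. Without null 2 the male count was 2 of 16, Aqp4 102703_s_at and Gjb6 102571_at, beside 1219 of 7453, and the count for the difference between the sexes was 0 of 16, beside 462 of 7453. With the Gapdh ratio as a covariate both counts were 0 of 16 and 0 of 7453 by limma, with 557 probe sets in males and 659 for the difference between the sexes at an unadjusted p under 0.05. Precision fell in that fit: the SE of the male Aqp4 102703_s_at difference was 0.99, against 0.35 without the covariate. Without wild-type 5 or without null 3 the count for the difference between the sexes was 1 of 16, Gjb6 102571_at, beside 497 and 885 of 7453. Quantile normalization gave 8 of 16 in males (50%, against 34.1% over the array), and centring each array on its median gave 4 of 16 (25%, against 37.2%), so the order of the astrocyte share and the array's share turned with the scaling. The share of higher values among all calls in males was 54.7% as scaled, 44% after quantile normalization and 27.5% after centring. The median of all probe sets in males moved with it, 0.0535 as scaled, -0.0822 after quantile normalization and -0.23 after centring. Aqp4 102703_s_at, Gjb6 102571_at, Gja1 100064_f_at and Clu 161294_f_at kept their direction and their male calls under all 3 scalings.

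**Figure D2:**
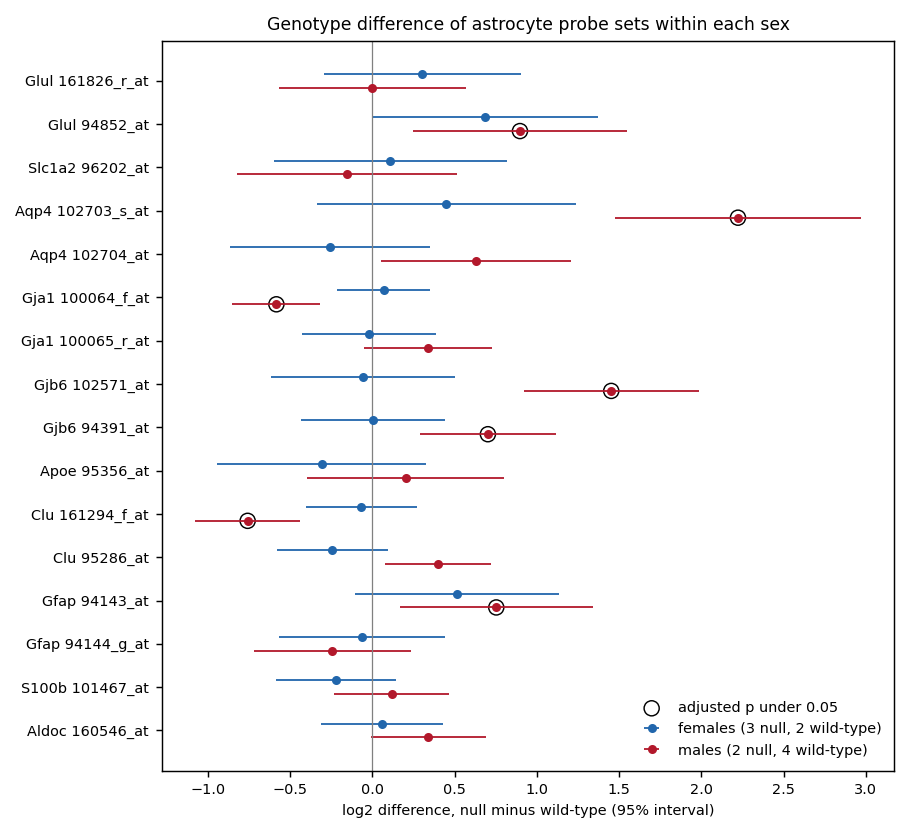
Genotype difference of each tested astrocyte probe set on the log2 scale, null minus wild-type (horizontal axis), with its 95% interval, in females (blue) and males (red); open circles mark an adjusted p under 0.05. The male values for Aqp4 102703_s_at (2.22) and Gjb6 102571_at (1.45) lie farthest right, and no female value is circled.

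Gap junctions between astrocytes are built mainly of 2 proteins, connexin 43, encoded by Gja1, and connexin 30, encoded by Gjb6. The 5′ region of each gene is shown because both had calls in males with opposite sign. The windows run from 250 bases before to 50 bases after the annotated start, from RefSeq on GRCm38.p6, at chr14:57133562-57133861 on the minus strand for Gjb6 and chr10:56377050-56377349 on the plus strand for Gja1. Capitals mark TGACTCA, the element bound by AP-1 factors, found on the minus strand:
Gjb6: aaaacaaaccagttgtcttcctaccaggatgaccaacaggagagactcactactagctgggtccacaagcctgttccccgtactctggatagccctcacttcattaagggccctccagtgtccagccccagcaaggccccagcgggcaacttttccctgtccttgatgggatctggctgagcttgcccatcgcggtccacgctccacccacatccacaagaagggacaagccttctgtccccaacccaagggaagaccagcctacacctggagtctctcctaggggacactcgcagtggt
Gja1: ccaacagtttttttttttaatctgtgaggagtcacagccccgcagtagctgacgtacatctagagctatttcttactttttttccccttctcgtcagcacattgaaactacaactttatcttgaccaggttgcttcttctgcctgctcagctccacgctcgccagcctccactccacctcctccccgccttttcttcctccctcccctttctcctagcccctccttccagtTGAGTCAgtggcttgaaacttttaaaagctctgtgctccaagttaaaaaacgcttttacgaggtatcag
The Gja1 window held the element once, 19 bases before the start, and the Gjb6 window did not hold these letters. Of 32851 windows of this length, 5.2% held TGACTCA on either strand. TATAAA (13.6% of windows), CCAAT (37.4%) and GGGCGG (35.7%), searched on both strands, were found in neither. The Gjb6 window had 57.3% G and C and the Gja1 window 47.7%, against a median of 52.7% over all windows.

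The 2 tested probe sets of Gjb6 moved together and both had a call in males. For 102571_at the signal was 409.3 and 421.6 in null 1 and null 2, 224.2, 181.7 and 129.4 in null 3 to null 5, and 104.7 to 198.4 with a median of 168.6 in the 6 wild-type brains. Both male null brains lay above every other brain, null 3 also lay above the wild-type brains, and null 4 and null 5 lay among them. The mean was 273 ± 134 in null brains (SD, n = 5) and 164 ± 31.7 in wild-type brains (SD, n = 6), with a log2 difference of 0.74 (SE 0.27, limma adjusted p = 0.147). In females the difference was -0.054 (95% interval -0.61 to 0.51), and in males it was 1.45 (SE 0.25, limma adjusted p = 0.000814), 2.74-fold higher in null males. The female difference minus the male one was -1.51 (SE 0.36, limma adjusted p = 0.0141).

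The other tested Gjb6 probe set, 94391_at, had 221.7, 272.5, 199.6, 133.6 and 146.1 in null 1 to null 5 and 130.2 to 169.8, median 155, in wild-type brains. Here too null 1, null 2 and null 3 exceeded all wild-type brains while null 4 and null 5 did not. Its difference was 0.0031 in females and 0.70 in males (SE 0.19, limma adjusted p = 0.0135), and the male call was lost without null 2 (limma adjusted p = 0.159) and under median centring. The third, 161607_r_at, lay below the floor of 3.1 in 9 of 11 arrays, with 0.1 to 4.1 in null and 0.3 to 8.3 in wild-type brains.

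Gja1 gave opposite signs on its 2 probe sets. With 100064_f_at the signal was 1717, 1552, 2294, 2206 and 1901 in null 1 to null 5, and 1916 to 2657 with a median of 2313.5 in wild-type brains. The 2 male null brains were the lowest of all 11, and null 5 lay just under the lowest wild-type brain. In females the log2 difference was 0.070, and in males it was -0.58 (SE 0.12, limma adjusted p = 0.00336), 1.50-fold lower in null males. The difference between the sexes was 0.65 (SE 0.18, limma adjusted p = 0.0271).
With 100065_r_at the order was turned round: the signal was 183.8 and 198.9 in null 1 and null 2, 166.9, 142.7 and 164.4 in null 3 to null 5, and 117.6 to 170.7, median 161.55, in wild-type brains. The male null brains were the highest of all 11 on this probe set. Its male difference was 0.34 (SE 0.18, limma adjusted p = 0.17). Over the 9 brains other than the male nulls the 2 probe sets correlated at -0.468 on the log2 scale, so they also parted among brains that did not stand apart. The suffix _f marks a probe set whose probes can bind a family of sequences, and _r one chosen under relaxed rules.

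Aqp4 encodes aquaporin 4, the water channel of astrocyte end feet. On 102703_s_at the signal was 152.1 and 143.6 in null 1 and null 2, against 33.9, 44.3 and 24.6 in null 3 to null 5 and 20.1 to 44.3, median 29.45, in wild-type brains. The male null brains were more than 3 times as high as any other, and the female null brains fell inside the wild-type range. The male difference was 2.22 on the log2 scale (SE 0.35, limma adjusted p = 0.000462), 4.67-fold, and the female difference was 0.45 (95% interval -0.34 to 1.24). Their difference, female minus male, was -1.77 (SE 0.50, limma adjusted p = 0.0311). With the Gapdh ratio as a covariate the male difference was not called, at -0.94 (SE 0.99). This value is within 1 SE of 0, so its opposite sign carries no weight. Over both sexes the difference was 1.38 (SE 0.35, limma adjusted p = 0.0852).
On 102704_at, which was brighter, the signal was 486.8, 415.6, 243.4, 251.6 and 225.9 in null 1 to null 5 and 174.8 to 380.7, median 312.9, in wild-type brains. Again the male null brains were the highest 2, but here the female null brains were among the lower ones. The difference was -0.26 in females and 0.63 in males (SE 0.27, limma adjusted p = 0.087), and 0.21 over both sexes (limma adjusted p = 0.596). The suffix _s marks probes that can bind more than 1 transcript. The 2 Aqp4 probe sets correlated at 0.447 over the 9 other brains.

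Glutamate handling was represented by Glul, which encodes glutamine synthetase, and Slc1a2, which encodes the main glutamate transporter of astrocytes. Glul 94852_at had a signal of 677.5, 713, 453.1, 434.9 and 470.2 in null 1 to null 5, and 170.6 to 472 with a median of 381.75 in wild-type brains. The male null brains lay above all others, and the female null brains lay in the upper part of the wild-type range. The mean was 550 ± 134 in null brains (SD, n = 5) and 358 ± 115 in wild-type brains (SD, n = 6), a log2 difference of 0.80 (SE 0.22, limma adjusted p = 0.0964).
In males the Glul difference was 0.90 (SE 0.30, limma adjusted p = 0.0362), and in females it was 0.69 (95% interval 0.0042 to 1.37, limma adjusted p = 0.995). The male call held in 6 of 11 cases when 1 mouse was left out. It was lost under median centring, without the filter, without the variance trend, and with age or the number letters added. The female value depended on which female wild-type brain was kept, since wild-type 3 had 462.6 and wild-type 5 had 170.6. It was 1.41 without wild-type 3 and -0.032 without wild-type 5.
The other Glul probe set, 161826_r_at, had 325.3, 207.9, 218.5, 248.2 and 165.7 in null 1 to null 5 and 163.7 to 363.9, median 212.4, in wild-type brains, with full overlap and a difference of 0.14 (limma adjusted p = 0.681). Its correlation with 94852_at over the 9 brains was 0.0446. Slc1a2 had 59.7, 66.9, 71.5, 70.6 and 45.4 in null 1 to null 5 and 50.6 to 105.2, median 56.7, in wild-type brains. Its groups overlapped, and the difference was -0.029 (95% interval -0.52 to 0.46, limma adjusted p = 0.951).

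Lipoprotein supply was represented by Apoe, the main apolipoprotein that astrocytes secrete, and Clu, which encodes clusterin, also called apolipoprotein J. Clu 161294_f_at had 812.6, 597.2, 1149, 1154 and 1148 in null 1 to null 5, and 1005 to 1287 with a median of 1221.5 in wild-type brains. Null 1 and null 2 were below every other brain, and the 3 female null brains lay within 6 units of each other. The difference was -0.068 in females and -0.76 in males (SE 0.15, limma adjusted p = 0.00205), 1.69-fold lower in null males. The female value exceeded the male one by 0.69 (SE 0.22, limma adjusted p = 0.0463).
Clu 95286_at did not follow it, with 1703, 1672, 1506, 1444 and 1444 in null 1 to null 5 and 1147 to 1747, median 1437.5, in wild-type brains. On this probe set the female null brains lay below both female wild-type brains, and the male null brains lay above 3 of 4 male wild-type brains. The difference was -0.24 in females and 0.40 in males (limma adjusted p = 0.055), with an interaction of -0.64 (SE 0.22, limma adjusted p = 0.0604). Thus the 2 Clu probe sets had interactions of opposite sign.

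Apoe 95356_at had 6482, 4915, 4390, 4720 and 3495 in null 1 to null 5, and 3355 to 7392 with a median of 5378.5 in wild-type brains. Null and wild-type brains overlapped fully, and the difference was -0.040 (95% interval -0.51 to 0.43, limma adjusted p = 0.929). The wild-type brains fell into separate ranges by animal number: 6034, 7392 and 5899 with LT numbers, against 4858, 3355 and 3602 with B4 numbers. The same 3 against 3 separation was seen for Gja1 100065_r_at, higher with LT numbers, and Clu 161294_f_at, lower. That makes 3 of 16 astrocyte probe sets (18.8%), about the share of all 7453 (18.4%), so it is no trait of the astrocyte genes. In a comparison chosen after these values were seen, LT minus B4 with genotype and sex in the model, Apoe differed by 0.72 (SE 0.21, limma adjusted p = 0.157) and 0 of 16 astrocyte probe sets passed, against 35 of 7453 (0.47%). Without the male null brains this Apoe difference had a limma adjusted p of 0.0388. Its value of 0.72 could not change there. The LT and B4 wild-type brains have the same numbers of each sex, so no null brain enters it. Only the SE moved, from 0.21 to 0.15. The limma adjusted p was 0.1315 with quantile normalization, 0.1531 with median centring and 0.3421 without a filter. Leaving out 1 mouse it was 0.1331 or more. Apoe was picked for this comparison by the values tested, so these p-values are not independent evidence. All LT mice were 6 weeks old and all were wild-type, whereas B4 wild-type mice were 7 to 9 weeks old, so number and age cannot be told apart here. Within B4 mice alone the genotype difference of Apoe was 0.37, and with the letters as a covariate it was 0.32.

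Gfap, which encodes the intermediate filament of astrocytes, was read by 2 probe sets. On 94143_at the signal was 69.9, 84, 47.1, 53.2 and 51.4 in null 1 to null 5, and 30.5 to 62.9 with a median of 41.3 in wild-type brains. The male null brains were the highest 2, and the 3 female null brains lay above both female wild-type brains. The difference was 0.64 over both sexes (SE 0.20, limma adjusted p = 0.109), 0.52 in females (95% interval -0.10 to 1.13) and 0.75 in males (SE 0.27, limma adjusted p = 0.049). Leaving out 1 mouse at a time, the male difference passed in 2 of 11 cases.
The brighter probe set 94144_g_at had 254.5, 214.1, 247.7, 247.2 and 352.8 in null 1 to null 5 and 218.7 to 360.1, median 281.2, in wild-type brains. Its groups overlapped, its difference was -0.16 (95% interval -0.52 to 0.20, limma adjusted p = 0.583), and it correlated with 94143_at at -0.176 over the 9 brains.

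S100b encodes a calcium-binding protein that astrocytes release. It was the most even of the 16 among null brains, with 314.1, 293.2, 293.7, 286 and 294.4 in null 1 to null 5 (coefficient of variation 3.55%), and 216.5 to 344, median 310.65, in wild-type brains (15.2%). The difference was -0.043 (95% interval -0.33 to 0.24, limma adjusted p = 0.87). Aldoc, the brain form of the glycolytic enzyme aldolase, had 4413, 3640, 3939, 3685 and 3906 in null 1 to null 5 and 2477 to 3846, median 3593.5, in wild-type brains. Null 1, null 3 and null 5 lay above all wild-type brains, and the difference was 0.21 (95% interval -0.082 to 0.49, limma adjusted p = 0.363).

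**Figure D3:**
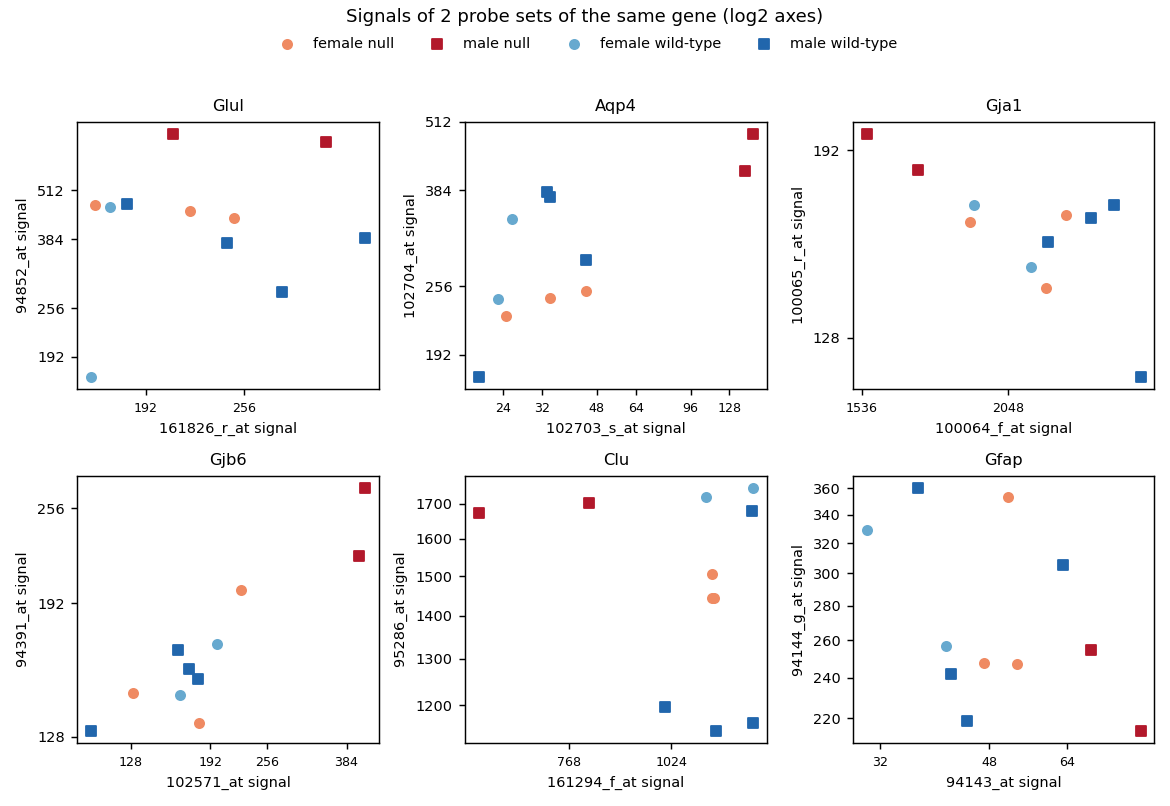
Signals of the 2 tested probe sets of each of 6 astrocyte genes plotted against each other, both axes logarithmic, 1 point per brain. The 2 probe sets rise together for Gjb6 and run against each other for Gja1, with the male null brains at the ends.

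Of the astrocyte genes, 6 had 2 tested probe sets, which differed in how closely they followed each other. Over all 11 arrays the correlation of log2 signal was 0.911 for Gjb6, 0.737 for Aqp4, 0.181 for Glul, -0.267 for Clu, -0.43 for Gfap and -0.717 for Gja1. Over the 9 arrays other than the male nulls it was 0.722 for Gjb6, 0.447 for Aqp4, 0.326 for Clu, 0.0446 for Glul, -0.176 for Gfap and -0.468 for Gja1. These are descriptions, and the points share their arrays and scaling. In the male comparison, both probe sets had a call for Gjb6 and only 1 of 2 for Aqp4, Glul, Clu, Gfap and Gja1.

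Sex was compared as female minus male with genotype in the model, and 0 of 16 astrocyte probe sets passed, as did 0 of 7453 (0%). At an unadjusted p under 0.05 by limma the counts were 5 of 16 and 926 of 7453. The lowest adjusted p was that of Aqp4 102703_s_at, with a difference of -1.22 (SE 0.35, limma adjusted p = 0.268). The median of the 16 differences was -0.177, and without the male null brains it was 0.045, with 0 of 16 passing and a lowest limma adjusted p of 0.54, for Clu. Among wild-type brains alone the signal of Aqp4 102703_s_at was 23.2 and 25.6 in the females and 20.1 to 44.3 in the males, which overlap. Among B4 mice only, Aqp4 102704_at passed (limma adjusted p = 0.0456), lower in females, as 1 of 16 beside 14 of 7453 (0.188%). The B4 males, among them null 1 and null 2, had 373.1 to 486.8, and the B4 females 225.9 to 251.6. In LT mice the order was not the same: the female, wild-type 5, had 339.4 and the males 174.8 and 286.4.

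Read through their brightest probe sets, the 10 genes did not rise and fall as 1 group from brain to brain. Over the 9 brains other than the male nulls, and through the brightest probe set of each gene, 22 of 45 pairs correlated above 0 and 23 below, with a median of -0.0021. Above 0.5 were 4 pairs, Aldoc with Clu (0.685), S100b with Gjb6 (0.678), Clu with S100b (0.585) and Slc1a2 with Gjb6 (0.514). Below -0.5 were 8 pairs, the lowest being Glul with Apoe (-0.774), Clu with Gja1 (-0.751) and Slc1a2 with Aldoc (-0.711). The genes were measured on the same arrays, so these values share depth and scaling. They also depend on the probe set taken, since the 2 of Gja1 correlated at -0.468 and the 2 of Gfap at -0.176 over the 9 brains.

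**Figure D4:**
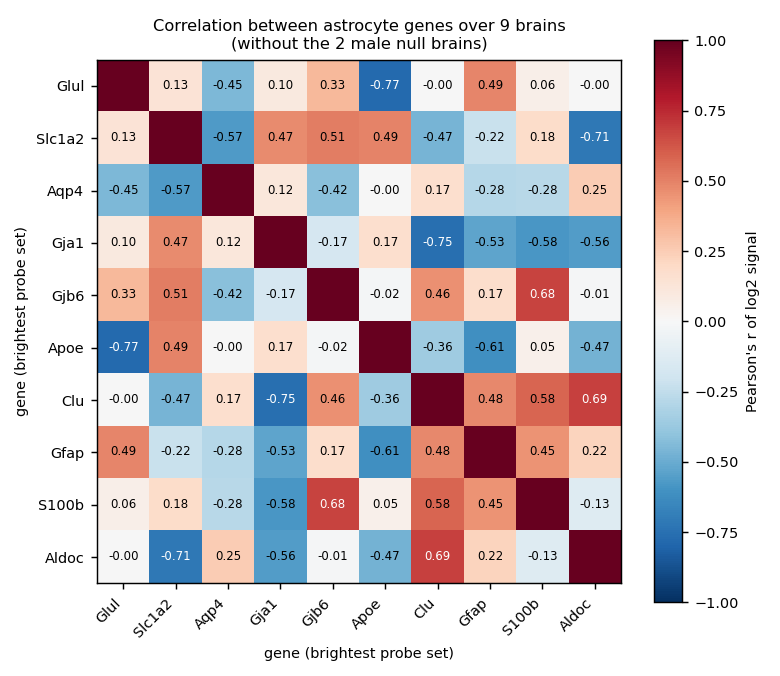
Pearson correlation of log2 signal between the 10 astrocyte genes over 9 brains, without the 2 male null brains, each gene through its brightest probe set; red is positive and blue negative. Values range from -0.774 for Glul with Apoe to 0.685 for Aldoc with Clu, with about as many red as blue squares.

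The probe sets of other genes most like each astrocyte gene were taken by correlation over all 11 arrays, 3 for each. For Gjb6 102571_at, 2 of the 3 were probe sets of Mobp, a myelin protein of oligodendrocytes (99046_at at 0.967 and 99048_g_at at 0.955), and the other was Hap1 (0.957). Over the 9 brains these values were 0.862, 0.952 and 0.831. The brightest Mobp probe set, 100536_at, was not among them and went the opposite way to Gjb6 102571_at in males (-0.63, against 1.45). Clu 95286_at was closest to Prkar1b (0.959), a regulatory subunit of protein kinase A, Sptan1 (0.952), a spectrin, and Ppp2r1a (0.942), a scaffold subunit of protein phosphatase 2A. Gja1 100064_f_at was closest to Cryl1 (0.97), which lies in the lambda crystallin family, then Cox17 (0.958), a copper chaperone of cytochrome oxidase, and Tln1 (0.957), which encodes talin. Glul was nearest to Mafk (0.936), Apoe to Sod3 (0.918), S100b to Vamp3 (0.915), Aldoc to Shisa5 (0.906), Aqp4 to Epha6 (0.902), Slc1a2 to Egr2 (0.884) and Gfap to Bcas2 (0.867). Among the 30 nearest probe sets none was of another of the 10 astrocyte genes. Those genes made up a very small part of the candidates, so this is no measure of how far they vary together.

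Other genes of the same pathways were followed through their brightest probe sets, and in every list 0 genes passed between null and wild-type brains over both sexes or in females. The same held without the male null brains, where the difference is again that of the females. The counts in males below stand beside 17.8% of all probe sets higher, 14.8% lower and 32.6% in either direction. Among 23 tested of 43 further astrocyte genes, 11 had an unadjusted p under 0.05 by limma, beside 23.1% of all probe sets. Of the 23 differences 9 were above 0, and the median was -0.246, against 0.0346 over all probe sets. The highest were Agt, the precursor of angiotensin (0.76), and Sparc, a secreted matrix protein (0.74). The lowest were Dio2, which makes active thyroid hormone (-1.48), and Ntsr2, a neurotensin receptor (-0.68). In males 5 of the 23 passed as higher and 10 as lower (65.2%, against 32.6% over the array), with Agt at 1.41, Sparc at 1.38, Dio2 at -2.36 and Ntsr2 at -1.09. In females 0 of 23 passed, with Dio2 at -0.50. The metallothioneins Mt1, Mt2 and Mt3, which bind zinc and copper, were lower in null males, with log2 differences of -0.83, -0.99 and -0.72 (limma adjusted p = 0.00422, 0.00104 and 0.0293).
The summed signal of 27 measured genes of this list was 23615 and 24038 in the male null brains, 31333 to 32831 in female null brains, against 28259 to 34452 in wild-type brains. That of the 10 genes described here was 13903 and 16517 in the male null brains, 12264 to 13663 in female null brains, against 12705 to 16162 in wild-type brains. The first sum set the male null brains below all others and the second did not. Sums of linear signal rest mostly on the brightest genes, in the second sum Apoe and Aldoc (6482 and 4413 in null 1). They are therefore no measure of astrocyte content.

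Of 7 tested genes of glutamate and glutamine handling, 2 had a call in males (28.6%, below the array's 32.6%): Slc1a1, a neuronal glutamate transporter, was higher (1.36) and Glud1, glutamate dehydrogenase, lower (-0.66). Among 4 gap junction genes the male calls (50%) were Gjb1, the connexin 32 of oligodendrocytes (1.62), and Tjp1, a scaffold of tight junctions (-0.51). Of 7 genes of water, ion and end foot function 3 were higher in null males and 0 lower (42.9%): Dtna, a dystrobrevin (1.46), Sgcb, a sarcoglycan (1.39), and Atp1b2, a sodium pump subunit (1.36). Among 11 lipoprotein genes 5 were higher and 1 lower in males (54.5%), led by Sorl1 (1.71) and Abca2 (1.47), with Lpl, lipoprotein lipase, at -1.04. Of 11 genes of glycolysis, glycogen and lactate, 7 were higher and 0 lower in males (63.6%), led by Pfkm, a phosphofructokinase (2.43), and Pygm, a glycogen phosphorylase (1.93).
Among 14 genes of reactive astrocytes 3 were higher and 0 lower in males (21.4%, below the array's 32.6%): Serpina3n (0.88), S1pr3 (0.83) and Stat3 (0.68). Of 13 S100 and filament genes, 2 were higher, S100a1 (1.47) and Lmna (0.55), and 2 lower, S100a6 (-0.54) and S100a13 (-0.46), which is 30.8%. Over these 8 lists the median difference of a list ran from -0.095 (glycolysis) to 0.188 (reactive astrocytes) in females and from -0.242 (further astrocyte genes) to 0.875 (glycolysis) in males. Over both sexes, where no gene of these lists passed, the values farthest from each other among reactive astrocyte genes were those of Timp1 (0.85) and S1pr3 (0.55) above and Srgn (-0.36) and Emp1 (-0.038) below. Among S100 and filament genes they were S100a5 (1.02), S100a1 (0.82), Plec (-0.48) and Ager (-0.42), and among lipoprotein genes Abca2 (1.01), Sorl1 (0.89), Lpl (-0.42) and Nr1h3 (-0.36). The glutamate genes ran from Slc1a1 (0.77) and Got2 (0.24) to Slc38a5 (0.082) and Glud1 (-0.39), and the gap junction genes from Gjb1 (0.84) and Gja5 (0.37) to Gjb2 (0.049) and Tjp1 (-0.33). The end foot genes ran from Dtna (0.83) and Atp1b2 (0.75) to Dag1 (-0.047) and Dmd (-0.27), and the glycolytic genes from Pfkm (1.29) and Pygm (1.09) to Pfkp (0.077) and Hk1 (0.015).

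Markers of other cells moved in the same male brains. Beside the array's 17.8% higher and 14.8% lower in males, 8 of 13 neuronal markers were higher and 1 lower (69.2% called), led by Map2 (3.26) and Syt1 (2.74). Of 9 microglial markers 4 were higher and 2 lower (66.7%), with C1qa at 1.70 and Tyrobp at -1.02. Of 7 oligodendrocyte markers 2 were higher, Mag (1.25) and Mbp (0.57), and 1 lower, Mobp (-0.63), a share of 42.9%. The Mobp value is that of its brightest probe set, 100536_at, and the other 3 tested Mobp probe sets went the opposite way in males, at 1.80 (99046_at), 1.97 (99047_at) and 2.76 (99048_g_at). Of 4 choroid plexus markers 0 were higher and 3 lower (75%), with Ttr at -0.94, and of 10 endothelial markers 0 were higher and 2 lower (20%). In females 0 of these markers passed. The same held without the male null brains, where the genotype difference is that of the females. Over both sexes none of these markers passed, and the highest and lowest differences were Map2 (1.98) and Syt1 (1.82) against Nefh (-0.28) and Thy1 (-0.15) for neurons, and C1qa (0.88) and Cx3cr1 (0.56) against Tyrobp (-0.49) and Ctss (-0.31) for microglia. They were Mag (0.51) and Mal (0.46) against Mobp (-0.50) and Mog (-0.18) for oligodendrocytes, Tek (0.22) and Kdr (0.17) against Eng (-0.69) and Tie1 (-0.44) for endothelium, and Folr1 (1.13) and Kl (-0.19) against Ttr (-0.36) and Igf2 (-0.25) for choroid plexus. The summed choroid plexus signal was 1438 and 1521 in the male null brains, 2384 to 2667 in female null brains, against 1929 to 2915 in wild-type brains. The part of these markers in the astrocyte values was not tested.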

How the data were processed

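One array was hybridised for each of 11 whole brains, 5 null and 6 wild-type, with groups taken from the labels. The deposited intensities are linear signals per probe set, made by the authors with MAS5 per the submitters' processing notes; detection calls were not used, and the MAS5 version and settings are not given in the sources used here. Each array had the same 2% trimmed mean, 150.1, and the scaling was kept. The platform annotation gave 1 gene for 10855 of 12488 probe sets, several for 396 and none for 1237, and 66 control probe sets were left out of tests.

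Values under the 10th percentile (3.1) were raised to it and log2 values taken. A filter at the 40th percentile of the mean log2 signal, which is 25.8 in linear units, left 7453 probe sets to test. Differences are log2 values, so those of signals near the floor are understated. limma 3.58.1 in R 4.3.3 (lmFit, then eBayes with a trend) gave genotype differences (null minus wild-type, sex as covariate), sex differences (female minus male, genotype as covariate) and a model with their interaction, which also gave the difference within each sex. P-values were adjusted by Benjamini-Hochberg over all 7453 probe sets, with 0.05 as the threshold, and the scripts were tested on simulated data. The Gapdh ratio was compared by a two-sided exact permutation test. The number of arrays limits the precision of every value, and nothing in the labels beyond 1 mouse per array describes further replication.

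The 10 genes and the lists were chosen with earlier results of these data known. From each list the 2 highest and 2 lowest genotype differences are named by rule, and list genes past the threshold in males were named after their values were seen. Alternatives were quantile normalization, median centring, log2(signal + 16), no filter, a filter at the 60th percentile, eBayes without the trend, other covariates (none, age, number letters, Gapdh ratio), B4 mice only, no male null brains, and leaving out each mouse. Promoter windows came from RefSeq on GRCm38.p6, which held 8 of the 10 genes. No paired analysis was possible because the labels give no shared replicate numbers.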

Additional observations from a re-analysis of the deposited data

Results flagged for a closer look

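Among 36 groups of signals (18 probe sets in 2 genotypes), 3 held 1 brain far from the rest of its group by Dixon's test, and chance flags about 1 in 20 groups. All 3 belong to the 2 astrocyte probe sets that were too dim to be tested. Gjb6 161607_r_at had 4.1 in null 1, against 0.1 to 0.6 in the other null brains. The same probe set had 8.3 in wild-type 3, against 0.3 to 2.6 in the other wild-type brains. Apoe 161321_i_at had 15.9 in wild-type 3, against 1.3 to 5.7 in the other wild-type brains.

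The null minus wild-type difference differed between females and males, past the threshold, for 4 astrocyte probe sets. As the female value minus the male value it was -1.77 for Aqp4 102703_s_at, -1.51 for Gjb6 102571_at, 0.69 for Clu 161294_f_at and 0.65 for Gja1 100064_f_at. The male side of all 4 holds 2 null brains, null 1 and null 2, whose Gapdh 3′ to 5′ ratios were 0.859 and 0.798, against 2.19 to 5.92 in the other 9 brains. Leaving out 1 mouse at a time, Gjb6 102571_at passed in 10 of 11 cases, Gja1 100064_f_at in 6, Aqp4 102703_s_at in 5 and Clu 161294_f_at in 2. Without null 2 none of the 4 passed, without wild-type 5 or null 3 only Gjb6 102571_at did, and with the Gapdh ratio as a covariate none passed either. In that last fit the SE for Gjb6 102571_at was 0.83, against 0.36 without the covariate.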

How the results depend on the processing

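Over both sexes, no astrocyte probe set passed for genotype under any alternative except leaving out wild-type 3 or wild-type 5. The male calls of Aqp4 102703_s_at and Gjb6 102571_at held when any 1 mouse was left out, and the 5 others were each lost without null 2. Apart from leaving out mice, 579 astrocyte values kept their direction and their side of the threshold, 31 lost a call, 5 gained one and 62 changed sign, of which 2 are also among the lost calls. Within males, genotype, the Gapdh ratio and the first component separate the same arrays and cannot be told apart. Among females too the ratio was lower in all null brains (2.19 to 3.58) than in the wild-type brains (3.81 to 3.91). Genotype and the ratio cannot be told apart there either. Scaling moved the median of all genotype differences, which was 0.0346 as scaled, -0.0399 after quantile normalization and -0.146 after centring. For the interaction the share of higher calls was 45.5% as scaled, 53.8% after quantile normalization and 68.3% after centring. Most of the sign changes below are of values that were not called. The cause was not tested for any of them.

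Among B4 mice only, the difference in females changed sign to -0.032 for Glul 94852_at, -0.011 for Gja1 100064_f_at and -0.11 for Gjb6 94391_at. The genotype difference changed sign to 0.19 for Slc1a2 96202_at, 0.37 for Apoe 95356_at and 0.038 for S100b 101467_at. The interaction changed sign to -0.18 for Slc1a2 96202_at. The sex difference changed sign to 0.018 for Slc1a2 96202_at, -0.060 for Aldoc 160546_at and -0.016 for Clu 95286_at. The calls were 29 of all probe sets for genotype, 14 of all probe sets for sex, 1 astrocyte probe set for sex (6.25%, beside 0.188% of all), 648 of all probe sets for interaction, 1 astrocyte probe set for interaction (6.25%, beside 8.69% of all) and 1 of all probe sets for genotype in females. With the Gapdh ratio added, the difference in females changed sign to -0.17 for Aqp4 102703_s_at and -0.012 for Gjb6 94391_at. The difference in males changed sign to -0.94 (SE 0.99) for Aqp4 102703_s_at. The genotype difference changed sign to 0.088 for Gfap 94144_g_at, -0.098 for Aqp4 102703_s_at, -0.56 for Aqp4 102704_at, 0.14 for Slc1a2 96202_at, -0.34 for Clu 95286_at, 0.098 for Gja1 100064_f_at, -0.021 for Gja1 100065_r_at, -0.26 for Gjb6 102571_at and -0.073 for Gjb6 94391_at. The interaction changed sign to -0.71 for Gfap 94144_g_at, 0.77 for Aqp4 102703_s_at, 0.59 for Aqp4 102704_at and -0.23 for Glul 161826_r_at. The sex difference changed sign to -0.15 for Gja1 100064_f_at, 0.0042 for Gja1 100065_r_at and 0.038 for Gjb6 102571_at. The calls were 0 of all probe sets for genotype, 0 of all probe sets for interaction, 0 astrocyte probe sets for interaction (0%, beside 0% of all), 0 astrocyte probe sets for genotype in males (0%, beside 0% of all) and 0 of all probe sets for genotype in males. With age added, the difference in females changed sign to 0.16 for Gjb6 102571_at. The genotype difference changed sign to -0.15 for Aqp4 102704_at, 0.41 for Slc1a2 96202_at, -0.0028 for Aldoc 160546_at, 0.24 for Apoe 95356_at, -0.0099 for Clu 95286_at and 0.094 for S100b 101467_at. The calls were 0 of all probe sets for genotype. With the number letters added, the difference in females changed sign to 0.018 for Gjb6 102571_at. The genotype difference changed sign to 0.24 for Slc1a2 96202_at, 0.32 for Apoe 95356_at and 0.037 for S100b 101467_at. Without the variance trend, the calls were 2 astrocyte probe sets for interaction (12.5%, beside 12.7% of all). With the filter at the 60th percentile, the calls were 1 of all probe sets for genotype and 1 of all probe sets for genotype in females. With log2(signal + 16), the calls were 2 of all probe sets for sex. With median centring, the difference in females changed sign to -0.064 for Gjb6 94391_at. The genotype difference changed sign to -0.037 for Glul 161826_r_at, -0.086 for Clu 95286_at and -0.011 for Gja1 100065_r_at. The interaction changed sign to 0.0071 for Glul 94852_at. The sex difference changed sign to 0.016 for Apoe 95356_at and 0.094 for Gja1 100065_r_at. The calls were 1 of all probe sets for genotype, 4 astrocyte probe sets for genotype in males (25%, beside 37.2% of all) and 1 of all probe sets for genotype in females. Without a covariate, the sex difference changed sign to -0.035 for Gja1 100064_f_at. The calls were 1 of all probe sets for genotype. Without a filter, the calls were 0 of all probe sets for genotype, 3 of all probe sets for sex and 2 astrocyte probe sets for interaction (11.1%, beside 7.49% of all). With quantile normalization, the genotype difference changed sign to 0.14 for Apoe 95356_at. The sex difference changed sign to -0.045 for Aldoc 160546_at and -0.053 for Gja1 100064_f_at. The calls were 1 of all probe sets for genotype. Without the male null brains, the genotype difference is that of the females. It changed sign to -0.26 for Aqp4 102704_at, 0.11 for Slc1a2 96202_at, -0.24 for Clu 95286_at, 0.070 for Gja1 100064_f_at, -0.018 for Gja1 100065_r_at and -0.054 for Gjb6 102571_at. The sex difference changed sign to 0.072 for Apoe 95356_at, -0.27 for Gja1 100064_f_at, 0.078 for Gja1 100065_r_at, 0.25 for Gjb6 102571_at and 0.056 for Gjb6 94391_at. The calls were 0 of all probe sets for genotype.

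Leaving out each mouse in turn gave 1 to 873 of all probe sets for genotype, 0 to 3 astrocyte probe sets for genotype, 0 to 32 of all probe sets for sex, 462 to 1403 of all probe sets for interaction, 0 to 4 astrocyte probe sets for interaction, 2 to 9 astrocyte probe sets for genotype in males, 1219 to 2485 of all probe sets for genotype in males and 0 to 4 of all probe sets for genotype in females. The log2 differences that changed sign then ran from -0.10 to 0.075 for Slc1a2 96202_at genotype, -0.18 to 0.20 for Apoe 95356_at genotype, -0.11 to 0.0022 for S100b 101467_at genotype, -0.062 to 0.15 for Gja1 100064_f_at sex, -0.017 to 0.63 for Glul 161826_r_at interaction and -0.93 to 0.51 for Glul 94852_at interaction. The others ran from -1.03 to 0.0089 for Apoe 95356_at interaction, -0.032 to 1.41 for Glul 94852_at genotype in females, -0.16 to 0.026 for Clu 161294_f_at genotype in females, -0.011 to 0.15 for Gja1 100064_f_at genotype in females, -0.24 to 0.16 for Gjb6 102571_at genotype in females and -0.17 to 0.12 for Gjb6 94391_at genotype in females.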
